A study of Mus musculus with 16 samples.

Results

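Periostin (Postn), tenascin C (Tnc), tenascin XB (Tnxb), osteonectin (Sparc), osteopontin (Spp1) and fibronectin (Fn1) were taken by name as the matricellular genes of the series, 6 of the 29629 genes in its single-cell table and of the 47729 entries in its tendon table. The single-cell samples were 12 plates of 384 wells, 3 at each of 4 time points, of cells derived from ScxGFP iPSCs, mouse induced pluripotent stem cells that carry a green fluorescent reporter of the tendon transcription factor scleraxis (Scx). T0 cells were mesodermal cells that had received no TGF-β2, and T3, T6 and T9 cells had been kept in recombinant human TGF-β2 at 10 ng/ml for 3, 6 and 9 days. No later plate lacked TGF-β2, so its effect and that of days in culture cannot be told apart. The tissue samples were Achilles tendons of mice aged 2 weeks, 2 wild-type (Wt) and 2 homozygous Scx knockout (homoKO) littermates, 1 library each. All plates shared the mesodermal induction, which per the methods used CHIR99021 and cyclopamine, and no Scx mutation is labelled in them. The labels give neither the clone nor whether the 3 plates of a time point were separate cultures, so p-values over plates measure the spread between these plates only. The sort kept living single cells and did not select for green fluorescence, and the tendons were whole tissue.

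Matricellular proteins are secreted into the extracellular matrix, where they bind collagens, growth factors and cell surface receptors more than they bear load themselves. Periostin binds collagen and tenascin C and brings bone morphogenetic protein 1 to pro-lysyl oxidase, the enzyme that starts collagen crosslinks. Tenascin C is a large oligomeric glycoprotein of developing and loaded tendon, and tenascin XB binds collagen fibrils in connective tissue, where its loss causes a form of Ehlers-Danlos syndrome. SPARC binds collagen and acts in its assembly, osteopontin is an integrin and CD44 ligand of bone and many other tissues, and fibronectin forms the pericellular fibrils on which collagen is laid down.

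The 6 genes lie on different chromosomes, with positions from the GENCODE vM21 annotation of GRCm38, the build the files used. Postn is at chr3:54361109-54391037 on the plus strand, Tnc at chr4:63959785-64047015 on the minus strand and Tnxb at chr17:34670535-34719815 on the plus strand. Sparc is at chr11:55394500-55423183 on the minus strand, Spp1 at chr5:104435118-104441050 on the plus strand and Fn1 at chr1:71585520-71653200 on the minus strand. Promoter windows from RefSeq, build GRCm38.p6, running from 250 bases before to 50 bases after an annotated start, were found for 5 of the 6 genes. The 4 windows below are shown because these genes differed most in how they behaved over time and between tissue and culture. Capitals mark an AP-1 motif (TGANTCA), the Smad element CAGAC or its reverse GTCTG, and TATAAA on the gene's strand. TATAAA, the TATA box sequence, was marked at any distance from the start.
Postn, chr3:54360857-54361156, plus strand: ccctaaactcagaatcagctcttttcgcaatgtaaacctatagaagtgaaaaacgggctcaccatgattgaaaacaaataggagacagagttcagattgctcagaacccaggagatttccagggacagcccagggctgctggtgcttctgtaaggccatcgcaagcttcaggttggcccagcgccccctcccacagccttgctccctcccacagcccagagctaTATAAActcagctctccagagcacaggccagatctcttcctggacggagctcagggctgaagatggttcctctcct
Tnc, chr4:64046966-64047265, minus strand: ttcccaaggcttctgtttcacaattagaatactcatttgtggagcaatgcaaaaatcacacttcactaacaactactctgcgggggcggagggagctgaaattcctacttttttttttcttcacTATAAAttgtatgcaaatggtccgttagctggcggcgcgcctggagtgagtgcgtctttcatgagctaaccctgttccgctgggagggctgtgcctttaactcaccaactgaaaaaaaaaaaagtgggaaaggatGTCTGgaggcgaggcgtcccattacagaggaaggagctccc
Spp1, chr5:104434861-104435160, plus strand: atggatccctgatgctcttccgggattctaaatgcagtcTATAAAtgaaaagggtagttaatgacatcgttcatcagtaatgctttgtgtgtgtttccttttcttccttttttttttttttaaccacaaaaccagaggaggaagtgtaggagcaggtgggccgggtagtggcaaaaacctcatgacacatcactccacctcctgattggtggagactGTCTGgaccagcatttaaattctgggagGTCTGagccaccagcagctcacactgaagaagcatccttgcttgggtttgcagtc
Tnxb, chr17:34670285-34670584, plus strand: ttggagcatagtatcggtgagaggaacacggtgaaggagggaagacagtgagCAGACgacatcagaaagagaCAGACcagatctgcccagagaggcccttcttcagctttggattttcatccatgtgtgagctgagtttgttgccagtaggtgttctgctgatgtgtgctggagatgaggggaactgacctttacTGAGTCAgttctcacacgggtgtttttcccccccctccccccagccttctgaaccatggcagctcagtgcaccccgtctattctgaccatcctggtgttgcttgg
Postn, Tnc and Spp1 also had a window at another start, not shown, and that of Postn held CAGAC from base -191. In the windows shown, Postn held TATAAA from base -26 relative to its start, and none of the other capital motifs. Tnc held this sequence from base -126 and Spp1 from base -211, both further from the start than in Postn, and these are sequence matches only. Tnxb held no TATAAA but an AP-1 match, TGAGTCA, from base -55, and 2 copies of CAGAC. Of 32851 promoter windows of the same length, 13.6% held TATAAA, 7.81% held TGANTCA on either strand and 49.6% held CAGAC or GTCTG. The E-box CANNTG, the kind of site that Scx and other basic helix-loop-helix factors bind, was not marked and was in 72.3% of windows. It was in the Tnc, Spp1 and Tnxb windows shown and not in that of Postn. CATTCC, searched on both strands as the site of TEAD factors and held by 14.7% of windows, was in none of the windows of the 5 genes.

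Levels are given as CPM, the counts scaled to a total of 1000000 per plate or library. In the plates these are unique molecular identifiers (UMIs), which tag single transcripts at their 3' end. The plates held 1921125 to 4657093 UMIs in 381 to 384 wells with at least 200 genes, and the tendon libraries 11188270 to 12398560 counts. A library split of the plates, read from the study's mapping summary and not from a stated batch, put T0-1, T0-2, T0-3, T3-2, T6-1, T6-3 and T9-3 on the side with more reads outside annotated features. At 3000 UMIs per well, the median number of genes per well was 1496 to 1704 on that side and 1023.5 to 1360 on the other. Since the split holds every T0 plate on 1 side, the values of each side are given beside the results they touch. Fold changes are on the log2 scale from edgeR's quasi-likelihood test over all genes, with the standard error (SE) and the Benjamini-Hochberg adjusted p over all genes tested, and a gene was called at an adjusted p under 0.05.

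Postn was the gene of the 6 whose level changed most during induction, and it was called at every step. It was at 5.58, 3.71 and 2.69 CPM in the 3 plates before TGF-β2 (T0), at 81.2, 108 and 92.7 CPM at T3, at 601, 546 and 525 CPM at T6, and then at 1451, 1100 and 1940 CPM at T9. No time point overlapped its neighbours. Postn rose by 4.75 (SE 0.26, edgeR adjusted p = 2.11e-08) from T0 to T3, where 33.2% of genes were called, by 2.60 (SE 0.22, edgeR adjusted p = 6.18e-05) from T3 to T6, where 4.24% were, and by 1.63 (SE 0.21, edgeR adjusted p = 0.00189) from T6 to T9, where 1.62% were. From T0 to T9 the rise was 8.99 (SE 0.30, edgeR adjusted p = 1.52e-10), a ratio of mean levels of 375, in a comparison that called 45.2% of genes. Marker genes of other cell types moved over the same time. The summed level of 7 epithelial genes, all detected, was 413 to 527 CPM in T0 plates and 30.8 to 129 CPM in T9 plates, and that of 8 pluripotency genes, all detected, was 371 to 780 and 0.332 to 296 CPM. That of 8 macrophage and osteoclast genes, with Adgre1 at 0 in both and Lyz2 at 0 in T0 plates, was 5.65 to 14.8 and 72.5 to 107 CPM. At T3, with Ptprc, Adgre1 and Lyz2 at 0, it was 20.8 to 68.5 CPM. Parietal endoderm (361 to 439 and 1149 to 1467 CPM) and endothelial sums (3.71 to 7.52 and 28.9 to 78.3) were also higher at T9. So were adipocyte (0 to 0.695 and 24.2 to 53.8) and skeletal muscle sums (18.7 to 22.3 and 31.8 to 80.9). The chondrocyte sum was lower (155 to 182 and 55.6 to 124), and bone, keratinocyte and Schwann cell sums overlapped. The part of these lists in the changes of the 6 genes over time was not tested. By mean CPM, Postn moved from place 11349 among all genes at T0 to place 50 at T9. The order held on both sides of the library split: from T3 to T9 the plates with more reads outside features gave 108, then 601 and 525, then 1940 CPM, and the others gave 81.2 and 92.7, then 546, then 1451 and 1100 CPM.

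More wells held Postn at each step, and its transcripts were spread over more of them. The share of wells with a Postn UMI, after each well was thinned to 3000 UMIs, was 0.651% ± 0.419 (SD, n = 3 plates) in T0 plates, 12.2% ± 1.54 at T3, 48.6% ± 3.28 at T6 and, at the last time point, 74.3% ± 7.76. Without thinning the shares were 1.92%, 16.3%, 62.4% and 85.6%. At T0 the 52 Postn UMIs of all 1147 wells were concentrated, with 3 wells holding at least 50% of them, against 31, 86 and 145 wells at T3, T6 and T9. Within the T9 plates, the 13 wells with UMIs of at least 4 of 8 pluripotency genes held Postn at 60.1 CPM and 20 wells with at least 8 of 14 parietal endoderm genes at 160 CPM, against 1571 CPM in the other 1090 wells of ordinary depth.

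Sparc had the highest UMI level of the 6 at T0, T6 and T9, behind Fn1 at T3, and also rose through induction. The T0 plates were at 888, 676 and 753 CPM, the T3 plates at 1181, 2415 and 1744 CPM, the T6 plates at 5196, 2542 and 4800 CPM, and the T9 plates at 6032, 5196 and 10167 CPM. The 3 plates of T0 lay below all later plates, and the lowest T9 plate equalled the highest T6 plate to 4 digits. Sparc rose by 1.40 (SE 0.24, edgeR adjusted p = 0.000658) from T0 to T3 and by 3.66 (SE 0.27, edgeR adjusted p = 1.23e-07) from T0 to T9. From T3 to T6 the rise was 1.25 (SE 0.24, edgeR adjusted p = 0.00980). That call was lost when only the 6 plates compared were fitted (1.21, edgeR adjusted p = 0.0517), without T3-1 (1.09, edgeR adjusted p = 0.0545) and without T6-1 (1.10, edgeR adjusted p = 0.0551). From T6 to T9 the difference of 1.01 (SE 0.24, edgeR adjusted p = 0.0538) missed the threshold. It passed with the library split as a covariate (1.17, edgeR adjusted p = 0.000103), within the plates of either side (edgeR adjusted p = 0.00246 and 0.00142, with a lone T9 or T6 plate taken to vary like the other groups), with DESeq2 (adjusted p = 0.000277), with DESeq2's size factors (edgeR adjusted p = 0.0488), with no filter on low counts (0.00635), without T9-3 (0.0443) and without wells of the pluripotency and parietal endoderm kinds (0.0358). Within the side with more reads outside features the levels were 2415 CPM at T3, 5196 and 4800 CPM at T6 and 10167 CPM at T9, and on the other side 1181 and 1744, then 2542, then 6032 and 5196 CPM. The share of thinned wells with a Sparc UMI was 73.8% ± 3.75 (SD, n = 3 plates) in T0 plates, 92.1% ± 7.43 at T3, 99.5% ± 0.702 at T6 and, at the last time point, 99.9% ± 0.155, and without thinning it was 90.5% ± 3.12 at T0 and 99.9% ± 0.150 at T9.

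Tnc and Fn1 rose at the first step and were not called at either later one. Tnc was at 23.4, 10.4 and 12.6 CPM at T0 and at 187, 391 and 266 CPM at T3, a rise of 4.38 (SE 0.33, edgeR adjusted p = 3.08e-07) with no overlap. Its T6 plates were at 484, 298 and 534 CPM and its T9 plates at 222, 198 and 483 CPM, so the 2 groups overlapped. The differences were 0.67 (SE 0.28, edgeR adjusted p = 0.208) from T3 to T6 and -0.34 (SE 0.28, edgeR adjusted p = 0.560) from T6 to T9, and the T9 level stood 4.70 (SE 0.33, edgeR adjusted p = 8.37e-08) above T0. The share of thinned wells with a Tnc UMI was 2.63% ± 1.44 in T0 plates, 40.6% ± 11.6 at T3, 51.1% ± 10.2 at T6 and, at the last time point, 34.6% ± 8.03.

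Fn1 was at 660, 593 and 560 CPM at T0 and at 1926, 3288 and 2343 CPM at T3, a rise of 2.27 (SE 0.27, edgeR adjusted p = 2.61e-05). The T6 plates were at 3186, 1552 and 3047 CPM and the T9 plates at 1523, 1118 and 3127 CPM. The steps from T3 to T6 (0.05, SE 0.26, edgeR adjusted p = 0.948) and from T6 to T9 (-0.22, SE 0.26, edgeR adjusted p = 0.699) were not called, and T9 stood 2.09 (SE 0.27, edgeR adjusted p = 2.65e-05) above T0.

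For both genes the spread after T3 followed the library split. On the side with more reads outside features Fn1 was at 3288 CPM at T3, 3186 and 3047 CPM at T6 and 3127 CPM at T9, and on the other side at 1926 and 2343, then 1552, then 1523 and 1118 CPM. Tnc was at 391, then 484 and 534, then 483 CPM on the first side and at 187 and 266, then 298, then 222 and 198 CPM on the other. At each of T3, T6 and T9 every plate of the first side was above every plate of the other for Tnc, Fn1 and Sparc. Postn and Spp1 broke this order at T6, at 525 and 14.7 CPM in T6-3 against 546 and 24.5 CPM in T6-2. With so few plates per side many genes take such an order without a difference, and its share over all genes was not counted. The part of the split in these levels was not tested beyond its use as a covariate. With that covariate, neither Tnc nor Fn1 was called at either later step.

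**Figure D1:**
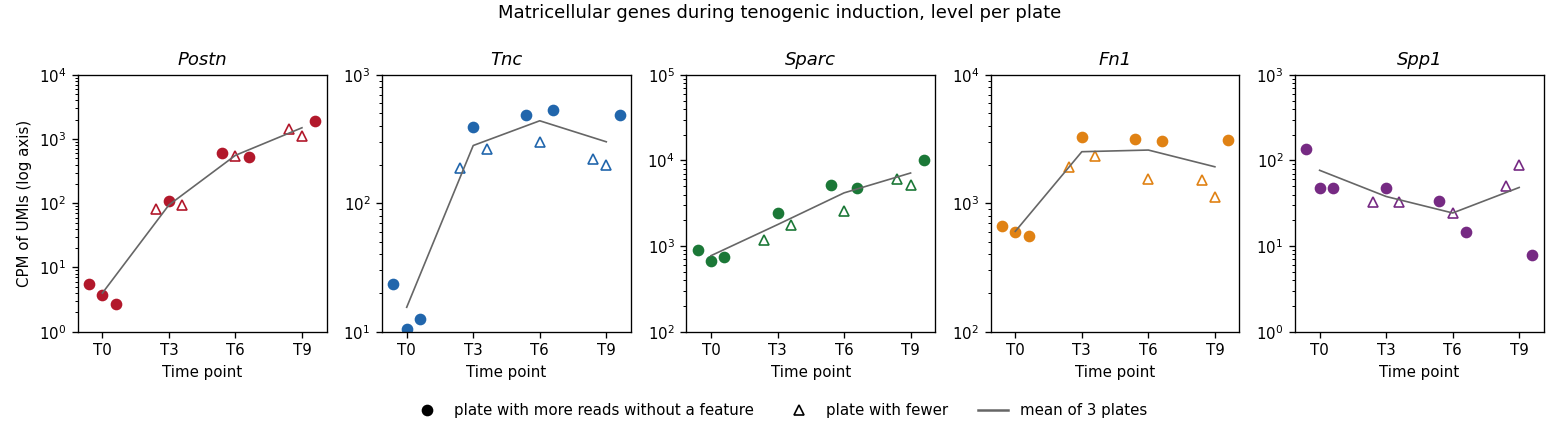
Level of 5 of the 6 genes in each of the 12 plates, in CPM of UMIs on a log axis against time point, where filled circles are plates with more reads outside annotated features, open triangles the other plates and grey lines the mean of 3 plates. Postn rose from 2.69 to 5.58 CPM at T0 to 1100 to 1940 CPM at T9, while the circles for Fn1 lay between 3047 and 3288 CPM from T3 on.

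**Figure D2:**
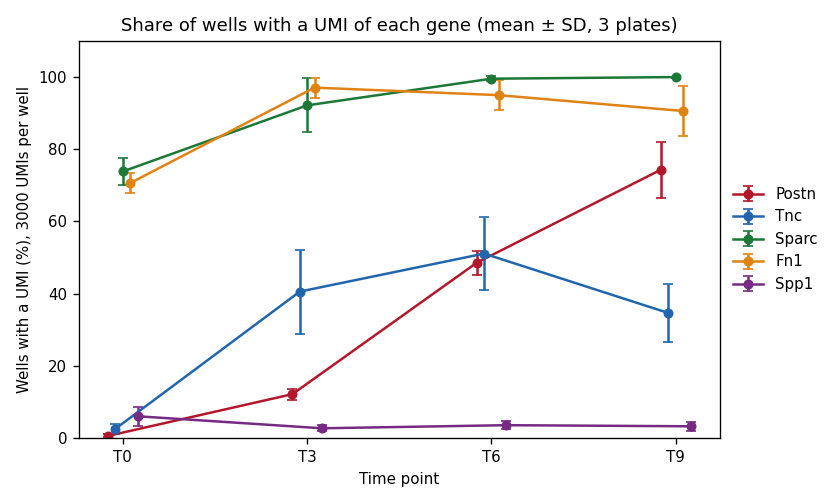
Share of wells with at least 1 UMI of each gene after thinning each well to 3000 UMIs, in percent against time point, as the mean of 3 plates with bars for 1 SD. Postn went from 0.651% to 74.3% of wells while Spp1 stayed between 2.76% and 6.09%.

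Spp1 was not called at any step with all 12 plates and the filter on low counts, and its transcripts sat in few wells. It was at 135, 47.9 and 47.4 CPM in T0 plates, 32.8, 47.9 and 33.1 CPM at T3, 33.8, 24.5 and 14.7 CPM at T6 and 49.7, 87.4 and 7.96 CPM at T9. Neighbouring time points overlapped, and T9 against T0 gave -0.04 (SE 0.61, edgeR adjusted p = 0.960). The step from T0 to T3 was -0.78 (SE 0.63, edgeR adjusted p = 0.359), and was called with no filter on low counts (-0.85, edgeR adjusted p = 0.00382). The step from T6 to T9 was 1.34 (SE 0.64, edgeR adjusted p = 0.331), and was called with no such filter (1.32, edgeR adjusted p = 2.0e-05), without T9-3 (1.90, edgeR adjusted p = 0.0233) and in only the plates with fewer reads outside features (1.60, edgeR adjusted p = 0.00654, with T6-2 as the lone T6 plate taken to vary like the others). Wells with UMIs of at least 4 of 8 pluripotency genes, 105 of the 4594 wells, held 72.4% of all Spp1 UMIs and were at 742 CPM, against 14.4 CPM in the 4239 wells that were neither of this kind, nor of the parietal endoderm kind, nor shallow. At T0 73 such wells held 85.1% of the Spp1 UMIs, at T3 14 wells held 75.3%, at T6 5 wells held 18.8% and at T9 13 wells held 74.3%. None of these wells came from T6-2, T6-3 or T9-3, and T9-3 was the plate with the lowest Spp1. Without wells of the pluripotency and parietal endoderm kinds, T9 against T0 was 0.51 (SE 0.55, edgeR adjusted p = 0.460) and the step from T3 to T6 turned from -0.60 (SE 0.65, edgeR adjusted p = 0.675) to 1.22 (SE 0.56, edgeR adjusted p = 0.257), neither of them called. In only the plates with more reads outside features, T9 against T0 was -3.09 (edgeR adjusted p = 0.00291). T9-3 was the 1 plate at T9 there, and the test takes it to vary like the plates of the other time points.

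Sparc was also high in wells of the parietal endoderm kind, named for a cell type known for its thick basement membrane. The class rests on a count of marker genes alone, and whether these wells held that cell type was not tested. The paper proposes that its cluster with Srgn, Tfpi and basement membrane genes is endothelial, and whether these wells belong to it was not tested. A count of detected marker genes depends on depth, and at T6 these wells had a median of 18187 UMIs against 8999 in the other wells. At T6 such wells were at 7231 CPM, against 4218 CPM in the other wells of ordinary depth, and at T9 at 10892 against 7124 CPM. These values sum wells over plates that differed in Sparc and held the kind unevenly. T6-1, T6-2 and T6-3 had 9, 1 and 10 wells with at least 8 parietal endoderm genes, pluripotency wells included. T9-1, T9-2 and T9-3 had 8, 8 and 4. The part of the plates in these gaps was not tested. The 43 wells of the parietal endoderm kind of all time points held 4.11% of all Sparc UMIs. Without them and the pluripotency wells the rise of Sparc from T0 to T9 was 3.64 (edgeR adjusted p = 7.48e-08). Fn1 was lower in the parietal endoderm wells than in the other wells, at 1450 against 2760 CPM at T6 and at 152 against 1982 CPM at T9. Sparc was not among the genes that marked these wells.

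**Figure D3:**
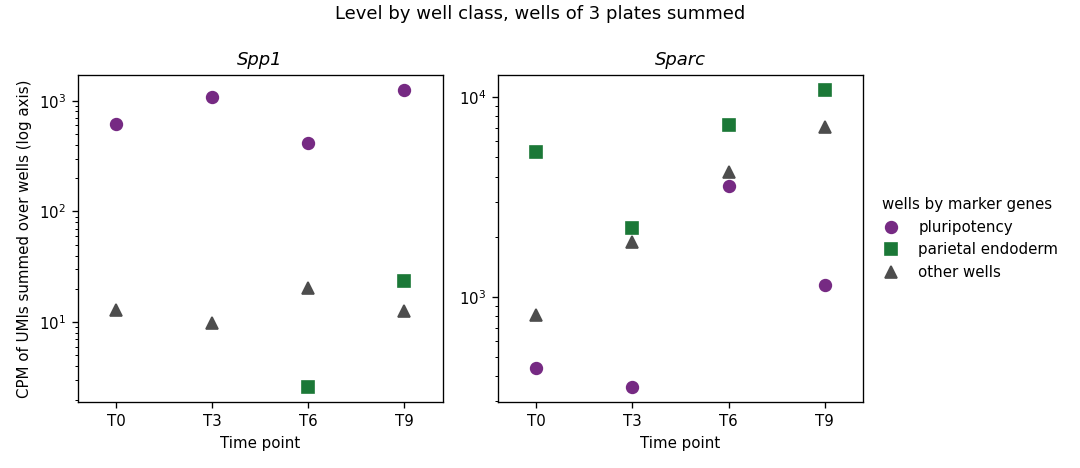
CPM of Spp1 and Sparc at each time point on a log axis, with the wells of 3 plates summed by class: at least 4 pluripotency genes (circles), at least 8 parietal endoderm genes (squares) and the other wells of ordinary depth (triangles), classes at 0 not drawn. Spp1 was between 412 and 1259 CPM in the first class and between 9.79 and 20.6 CPM in the other wells.

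Tnxb was close to absent from the UMI counts of the cultures. No Tnxb UMI was counted in the 3447 wells of T0, T3 and T6, which allows a share of wells of up to 0.0870% and a level of up to 0.0954 CPM from counting error alone, and 2 UMIs were counted at T9, in T9-1 and T9-3. It did not pass the filter on low counts and was not tested over time. The 6 genes together made up 0.147% of the UMIs of T0 plates, 0.471% at T3, 0.780% at T6 and, in the end, 1.09%.

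For each tested gene the genes with the most similar course over the 12 plates were found by the root mean square (RMS) difference of centred log2 CPM among 9144 candidates with a mean of at least 10 CPM. For Postn these were Thbs2 (RMS 0.43), a thrombospondin, and Dcn (0.50), the small proteoglycan decorin. For Tnc they were Atp2b4 (0.34), a plasma membrane calcium pump, and Ldlrad4 (0.36), a known inhibitor of TGF-β signalling. For Sparc they were Cavin1 (0.30), a caveolar coat protein, and Cercam (0.32). For Fn1 they were Lrig3 (0.20) and Thsd7a (0.22). For Spp1 the nearest, Grtp1 (0.65) and Chchd10 (0.65), were further away than for any other of the 5 genes.

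The genes that the 6 are known to work with moved to differing extents. Of 9 tested collagens and matrix enzymes, 8 rose from T0 to T9 and none fell, with a median of 4.12 against -0.02 for all genes tested. The largest rises were those of Lox, lysyl oxidase, by 9.40 (SE 0.45, edgeR adjusted p = 2.25e-09) from a mean of 2.91 to 1416 CPM, and of Col1a2, a chain of type I collagen, by 6.37 (SE 0.36, edgeR adjusted p = 1.22e-08). Of 8 tested relatives of the 6 genes, 6 rose and none fell, with a median of 2.57, and Sparcl1, a SPARC homologue, changed most (6.64, SE 0.28, edgeR adjusted p = 1.27e-09, from 2.76 to 196 CPM). Of 12 tested integrin subunits and other receptors, 7 rose and 1 fell, with a median of 0.71, in a comparison that called 45.2% of all genes. The receptor that fell was Cd44, a receptor of hyaluronan and osteopontin, by 1.16 (SE 0.36, edgeR adjusted p = 0.0174), from 21.5 to 6.73 CPM. From T3 to T6, where 4.24% of all genes were called, 3 of the 9 collagens and enzymes, 1 of the 8 relatives and 1 of the 12 receptors rose and none of the 3 lists had a gene that fell. The receptor was Itgb3, the integrin β3 subunit, named after its value was seen, which rose by 3.28 (SE 0.65, edgeR adjusted p = 0.011) from 2.32 to 23.3 CPM. From T6 to T9, where 1.62% of all genes were called, the 1 call in the 3 lists was a rise of Spock3 (1.34, SE 0.27, edgeR adjusted p = 0.027), a SPARC-related proteoglycan, also named after its value was seen.

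Wells with a UMI of Tnmd, the gene of tenomodulin and a marker of mature tenocytes, were compared with wells without one in the same T6 and T9 plates, which asks how the 6 genes relate to tenocyte maturation. There were 302 such wells and 1994 without, with plate medians of 7734 to 12520.5 and 7029.5 to 10071 UMIs per well. Postn was higher in the wells with Tnmd, and Tnc and Sparc were so to a smaller degree, in a test that called 2.97% of genes. At T6 Postn was at 943, 1103 and 1269 CPM in Tnmd-positive wells and at 521, 439 and 439 CPM in the negative wells of the same plates. At T9 it was at 2631, 2291 and 3952 CPM against 1135, 926 and 1681 CPM. It was higher in 6 of 6 plates, by 1.25 (SE 0.07, edgeR adjusted p = 6.86e-12), and by 1.16 to 1.43 over the alternatives tried, with edgeR or DESeq2 adjusted p of at most 0.00079.

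Tnc was higher in 5 of 6 plates, by 0.47 (SE 0.10, edgeR adjusted p = 0.00742), with the Tnmd-positive wells at 234 to 774 CPM and the negative wells at 192 to 507 CPM. The exception was T6-1, at 435 against 495 CPM. The call was lost without T9-3 (0.41, edgeR adjusted p = 0.0631) and in the T6 plates alone (0.32, edgeR adjusted p = 0.462). Sparc was higher in 6 of 6 plates, by 0.19 (SE 0.04, edgeR adjusted p = 0.0124), a call lost when wells were assigned after thinning (0.14, edgeR adjusted p = 0.121), without T6-1 (0.18, edgeR adjusted p = 0.0752) and without a filter on low counts (0.10, edgeR adjusted p = 0.259). It was also lost in the T6 plates alone (0.21, edgeR adjusted p = 0.290), in the T9 plates alone (0.16, edgeR adjusted p = 0.317) and without the plate as a block (0.20, edgeR adjusted p = 1.00). All 3 genes stayed called without the wells of the pluripotency and parietal endoderm kinds, with edgeR adjusted p of 1.37e-15 for Postn, 0.00372 for Tnc and 0.0140 for Sparc.

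Fn1 did not differ by Tnmd past the threshold (0.13, SE 0.08, edgeR adjusted p = 0.562) and split by time point. It was lower in the Tnmd-positive wells of all 3 T6 plates, at 2959, 1469 and 2886 CPM against 3240, 1568 and 3066 CPM, and higher in those of all 3 T9 plates, at 2035, 1213 and 3920 CPM against 1386, 1104 and 3024 CPM. With wells assigned after thinning T6-2 turned, at 1580 against 1552 CPM. In the T9 plates alone Fn1 was called (0.38, SE 0.08, edgeR adjusted p = 0.0312), and in the T6 plates alone it was not (-0.12, SE 0.08, edgeR adjusted p = 0.732). The difference between the 2 time points, 0.49 (SE 0.11), had an unadjusted edgeR p of 0.000167 and an adjusted p of 0.389. In that test 0 of 10199 genes were called and 491 had an unadjusted p under 0.05. Spp1 was at 0 to 144 CPM in the positive and 8.98 to 79.1 CPM in the negative wells, higher in 5 of 6 plates, and was not called (0.62, SE 0.20, edgeR adjusted p = 0.116). With wells assigned after thinning it was higher in 3 of 6 plates (0.065, edgeR adjusted p = 0.971), and without T9-3 it was called (0.70, edgeR adjusted p = 0.0225). Its 0 came from the 36 positive wells of T9-3, where a count of 0 allows up to 8.72 CPM.

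Among the genes known to work with the 6, 3 of 8 tested collagens and enzymes were higher in Tnmd-positive wells and none lower. Their median was 0.15 against -0.01 for all genes, of which 2.97% were called. Of 7 relatives 1 was higher and 2 were lower, and of 9 receptors none was higher and 1 lower, all named here after their values were seen. Tgfbi, a homologue of periostin, was higher by 0.66 (SE 0.09, edgeR adjusted p = 3.25e-05). Sparcl1 (-0.98, SE 0.16, edgeR adjusted p = 0.000442) and Spock3 (-1.07, SE 0.29, edgeR adjusted p = 0.0433) were lower, as was Itga9, the tenascin C receptor subunit integrin α9 (-0.79, SE 0.17, edgeR adjusted p = 0.00923).

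**Figure D4:**
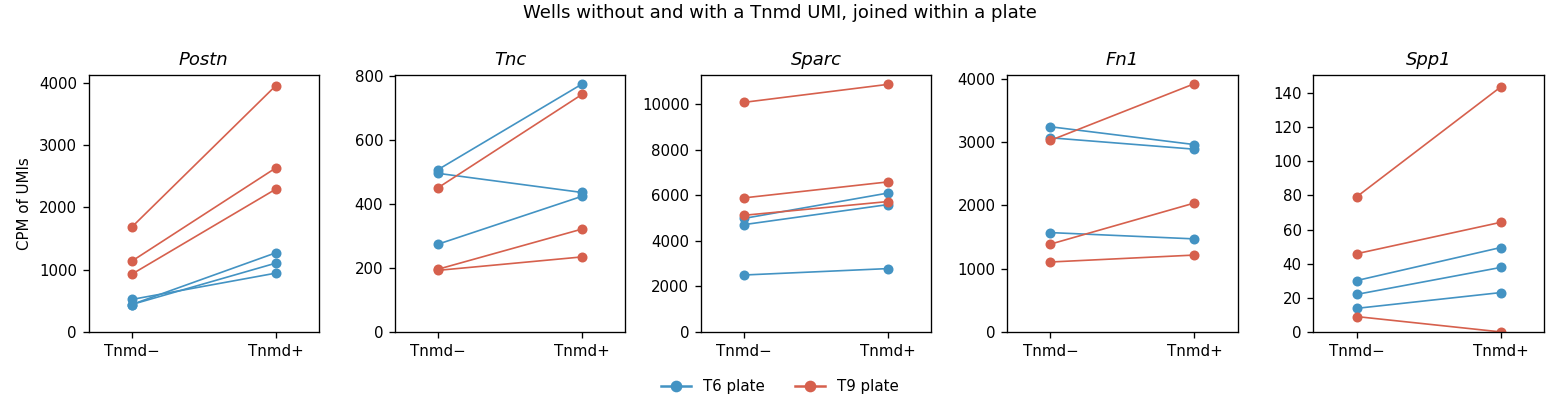
CPM of 5 genes in the wells without (Tnmd-) and with (Tnmd+) a Tnmd UMI of each T6 plate (blue) and T9 plate (red), with lines joining the 2 classes of a plate and every axis starting at 0. Every Postn line rises, and the Fn1 lines of T6 fall while those of T9 rise.

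At T3, wells with a UMI of Scx were compared with wells without one in the same plates, 933 and 218 wells, in a test that called 0.437% of genes. Spp1 was lower in the Scx-positive wells of 3 of 3 plates, at 25.2, 19.7 and 22.8 CPM against 60.5, 200 and 93.4 CPM, a fold change of -2.30 (SE 0.32, edgeR adjusted p = 0.00134). Wells of the pluripotency and parietal endoderm kinds made up 4.13% of the Scx-negative and 0.643% of the Scx-positive wells. Without them Spp1 was no longer called (-1.44, SE 0.70, edgeR adjusted p = 0.852), and neither was it without T3-2 (-1.69, edgeR adjusted p = 0.244). Fn1 was higher in 3 of 3 plates, at 2023, 3463 and 2406 CPM against 1571, 2351 and 1972 CPM, by 0.40 (SE 0.09, edgeR adjusted p = 0.0384). It too was not called without those wells (0.31, SE 0.08, edgeR adjusted p = 0.360), without T3-1 (0.43, edgeR adjusted p = 0.0977) or without T3-2 (0.31, edgeR adjusted p = 0.552). Postn (0.58, SE 0.28, edgeR adjusted p = 0.653), Tnc (0.15, SE 0.13, edgeR adjusted p = 0.876) and Sparc (-0.13, SE 0.10, edgeR adjusted p = 0.846) were not called. Postn at T3 was at 76.3, 120 and 99.1 CPM in Scx-positive wells and at 99.2, 44.6 and 55.1 CPM in the negative ones, and with wells assigned after thinning it was called (0.76, edgeR adjusted p = 0.0435).

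In the tendon libraries the label of the knockout was first checked on Scx itself, which had 1151 and 996 counts in Wt and 287 and 296 in homoKO, or 103 and 81.3 against 23.1 and 25.1 CPM. Which part of the gene the knockout removes is not given in the sources used here. In RPKM, the CPM divided by the kilobases of exon, the mean over Wt was 6847 for Sparc, which was in place 4 of all genes, 103 for Postn, 72.1 for Fn1, 39.2 for Tnc, 36.6 for Tnxb and 1.31 for Spp1. Tnc and Tnxb, at 37.2 and 41.1 against 42.3 and 30.9 RPKM, did not differ beyond the spread of the 2 Wt libraries. Tnxb, with 4618 to 9218 counts per tendon library, thus stood well above the floor there, in contrast to the cultures. This contrast crosses 2 assays, UMIs at 3' ends in the plates and read counts in tendon, and the part of the assay in it was not tested. These are bulk samples, in which fewer cells of a type and less RNA per cell cannot be told apart.

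Postn was the 1 of the 6 genes called between homoKO and Wt, a comparison that called 3.84% of genes. It was at 1129 and 665 CPM in Wt and at 2246 and 2976 CPM in homoKO, which did not overlap. The rise was 1.60 (SE 0.28, edgeR adjusted p = 0.0149), and 1.31 to 1.97 over the alternatives, with adjusted p of at most 0.025. Tnxb was at 517 and 377 CPM in Wt and 626 and 783 CPM in homoKO, a difference of 0.71 (SE 0.21, edgeR adjusted p = 0.114). Fn1 was at 1011 and 675 CPM against 1147 and 1424 CPM (0.67, SE 0.24, edgeR adjusted p = 0.181) and Tnc at 289 and 319 CPM against 391 and 349 CPM (0.32, SE 0.17, edgeR adjusted p = 0.387). In all 3 genes both homoKO libraries were above both Wt libraries. With so few libraries many unchanged genes take such an order, and its share over all genes was not counted. Tnxb and Fn1, not Tnc, were called by DESeq2 (adjusted p = 0.00764 and 0.0221), with no filter on low counts (edgeR adjusted p = 0.00951 and 0.0288) and without Wt 1 (edgeR adjusted p = 0.0457 and 0.0309, with the lone Wt library taken to vary like homoKO).

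Sparc was at 25932 and 25944 CPM in Wt and at 17792 and 17963 CPM in homoKO, the largest gap of the 6 relative to the spread within groups. It took 2.59% of all counts in both Wt libraries and 1.78% and 1.80% in the homoKO ones. edgeR gave -0.49 (SE 0.27, edgeR adjusted p = 0.407), and it was called by DESeq2 (adjusted p = 0.0317) and without Wt 1 (-0.54, edgeR adjusted p = 0.0168). Spp1 was at 22 and 29 counts in Wt and at 148 and 13 counts in homoKO. Its difference of 1.60 (SE 0.85, edgeR adjusted p = 0.378) rested on homoKO 1 and turned to -0.89 (edgeR adjusted p = 0.649) without it. It was called without homoKO 2 (2.46, edgeR adjusted p = 0.00690) and with no filter on low counts (1.60, edgeR adjusted p = 0.0283).

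Marker genes of tenocytes and of other cell types moved with the groups as well. The summed level of 9 skeletal muscle genes, all detected, was 30818 and 52195 CPM in Wt and 69377 and 72629 CPM in homoKO. That of 10 tenocyte genes, Scx and type I collagen among them, was 165426 and 152353 against 72123 and 83140 CPM. Most of this sum was Col1a1, at means of 81566 and 40572 CPM, and Col1a2, at 68322 and 34149 CPM. Neither was called, and the sum says little about the other tenocyte genes. The sum of 7 chondrocyte genes, with Matn1 at 0, was 2865 and 2985 against 390 and 359 CPM. The 5 adipocyte genes summed to 2437 and 1073 against 668 and 343 CPM and the 5 endothelial genes to 587 and 613 against 422 and 371 CPM. The 9 macrophage and osteoclast genes overlapped between groups, at 484 and 329 against 449 and 384 CPM. The 3 Schwann cell genes stood apart in homoKO 1, the library with the high Spp1, at 4138 CPM against 30.4 CPM in homoKO 2 and 465 and 450 CPM in Wt. The part of these lists in the differences of the 6 genes was not tested.

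**Figure D5:**
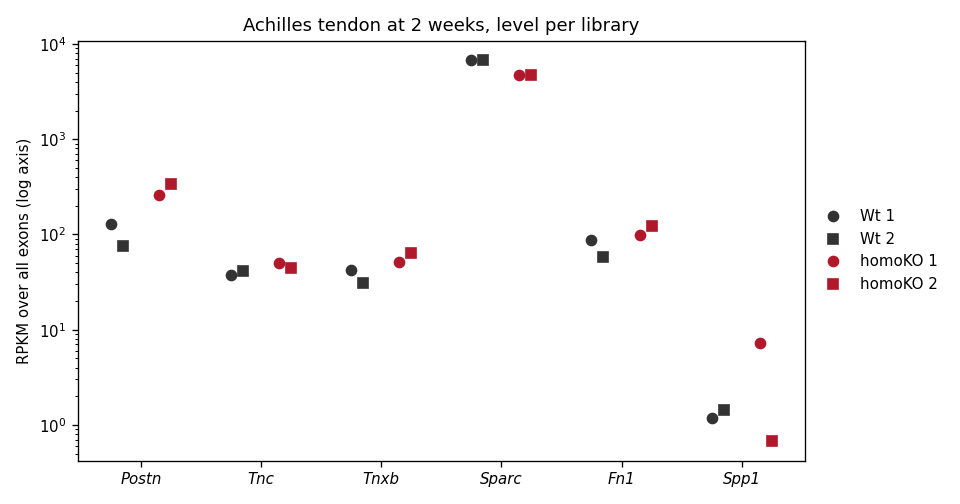
Level of the 6 genes in each Achilles tendon library, in RPKM over all exons on a log axis, with Wt in black, homoKO in red, circles for animal 1 and squares for animal 2 of a group. Both homoKO libraries lay above both Wt libraries for Postn, Tnc, Tnxb and Fn1 and below both for Sparc, and Postn was the 1 gene called by edgeR. The share of all genes with such an order was not counted.

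Of 10 collagens and matrix enzymes tested in tendon, 3 were higher in homoKO and none lower, with a median of 0.03 against -0.00 for all genes. Col3a1, the chain of type III collagen, rose by 1.41 (SE 0.31, edgeR adjusted p = 0.0378) from 6797 to 17285 CPM, and Col5a1, of type V collagen, by 1.37 (SE 0.24, edgeR adjusted p = 0.0150). Col1a1 (-0.96, SE 0.32, edgeR adjusted p = 0.148), Col1a2 (-0.95, SE 0.31, edgeR adjusted p = 0.142) and Lox (-0.44, SE 0.19, edgeR adjusted p = 0.274), named after their values were seen, were not called. Of 8 relatives 1 rose and 1 fell, beside 3.84% of all genes called in this comparison. Smoc2, a SPARC-related matrix protein, rose by 1.56 (SE 0.17, edgeR adjusted p = 0.00114) and Spock3 fell by 3.36 (SE 0.35, edgeR adjusted p = 0.000894), from a mean of 19.4 to 1.81 CPM. Of 14 receptors 1 was called, Itga9, named after its value was seen, which rose by 1.07 (SE 0.16, edgeR adjusted p = 0.00617).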

How the data were processed

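Single cells were sorted into plates and read by CEL-Seq2, which tags the 3' end of each transcript with a UMI. Per the labels and the methods, the authors aligned reads to GRCm38 with HISAT2 (2.2.1 for plates, 2.0.4 for tendon) and made the deposited counts with featureCounts (1.5.0 for tendon) and, for plates, UMI-tools 1.0.1. The annotation release and the strand setting are not given in the sources used here. The deposited plate table holds UMI counts per gene and well and the tendon table holds read counts per gene, neither normalized. All 12 plates use the same 384 well barcodes. The 3 plate table entries outside Ensembl genes, 0.0642% of UMIs, were left out.

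Wells with at least 200 genes were kept (4594 of 4608), which is not the study's own number, and no doublet caller was run since single cells were gated before sorting. UMIs were summed per plate, or per plate and class of well, and tested with edgeR 4.0.16 (filterByExpr, TMM, quasi-likelihood test, Benjamini-Hochberg adjustment), with all 12 plates in 1 fit over time, the 4 tendon libraries in another, and the plate as a block between classes of wells. SE is the fold change divided by the square root of F. Fold changes depend on depth: a gene with few UMIs has a wider error, and a count of 0 was read as at most 3 counts, a limit that leaves out all but counting error. RPKM used the union of a gene's exons in GENCODE vM21. Plate replicate numbers did not pair the samples throughout: correlations of same-numbered deviations from the group means were -0.563 to 0.515, and 0.0715 in tendon. Between T0 and T3 they were above those with other numbers but small, at 0.0175 to 0.0287. Between T6 and T9 they were above the best other number for replicates 2 (0.418 against -0.226) and 3 (0.515 against 0.353). Between T3 and T6 all were negative. Libraries of a group differed by more than sampling noise. The alternatives tried were DESeq2 1.42.0, other size factors, no filter on low counts, the replicate block or none, the library split, other filters on wells, thinning and leaving out each library. The fits were checked on simulated data, where the share of false calls was well above the nominal level in the tendon fit and somewhat above it over time, so calls there, Postn in tendon included, may be too many.

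The members and lists were chosen with earlier results of these data known. Text values name all 6 members, the 2 genes most like each, and, for T9 against T0 and homoKO against Wt, the 3 called genes of the lists with the largest change in each direction. Others are marked. Exons of Tnc, Tnxb, Spp1 and Fn1 overlap those of genes with few counts, and Scx overlaps Bop1 on the other strand with 0 shared exon bases.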

Additional observations from a re-analysis of the deposited data

How the results depend on the processing

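Over 519 alternative values of the fold changes of the 6 genes, 459 kept both their direction and their side of the threshold, 18 lost a call, 26 gained one and 16 turned sign, and every one that turned was not called in its main fit. Postn kept 101 of 102 and gained a call in the other. The direction of Fn1 from T3 to T6 turned to -0.16 with the library split as a covariate, -0.31 in plates with fewer reads outside features, -0.033 without T3-1, -0.088 without T6-1 and -0.068 without T6-3, with 0.22 the highest of the values without 1 plate. In the plates with more such reads, T9 against T6 turned to 0.0088 for Tnc, 0.090 for Fn1 and -1.51 for Spp1. Without wells of other cell types Spp1 turned to 1.22 (T6 against T3), -0.44 (T9 against T6) and 0.51 (T9 against T0). With 1 plate left out, T9 against T0 was also 0.60 without T0-1, 0.49 without T9-3 and at the lowest -0.79 without T9-2. Its lowest value of all was -3.09, in only the plates with more reads outside features, where T9-3 was the lone T9 plate. Spp1 in tendon was -0.89 without homoKO 1 and 2.46 without homoKO 2, Sparc by Scx was 0.036 without T3-1 and -0.26 without T3-2, and Fn1 by Tnmd was -0.12 in T6 plates alone.

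The number of genes called moved more than the 6 genes did. It was 4439 for T3 against T0 (3001 to 4405 with 1 library left out), 6050 for T9 against T0 (4774 to 6491), 567 for T6 against T3 (291 to 890), 217 for T9 against T6 (35 to 852), 560 in tendon (380 to 666), 39 by Scx (2 to 42) and 303 by Tnmd (188 to 267). T6 against T3 gave 899 with DESeq2, 1010 with no filter on low counts, 1483 with the split as a covariate and 264 from only the 6 plates compared. T9 against T6 gave 579, 684, 813 and 45 in the same order, 330 in plates with more reads outside features, and 113 with a replicate block. Tendon gave 1415 with no filter and 1108 with a replicate block. The Scx comparison gave 24 with DESeq2, 116 with no filter, 210 when wells were assigned after thinning, 8 without wells of other cell types and 8 with no replicate block. The Tnmd comparison gave 41 with no replicate block, 107 in T6 plates and 120 in T9 plates, and without the block Tnc, Sparc and, by Scx, Fn1 were not called (edgeR adjusted p = 0.741, 1.00 and 0.998). The block changed no other call of the 6 genes. With the replicate block Postn was still called in tendon and over every step. The subsets by library side, time point and other cell types in the comparisons of wells, and the library sizes without Col1a1, Col1a2 and Col3a1 in tendon (560 called), were chosen after seeing the data. The causes of these changes were not tested.

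Counts were few for Tnxb in the cultures, with 2 UMIs at T9, and for Spp1 in tendon, with 13 to 148 per library. With every T0 plate on 1 side of the library split, the comparisons with T0 were made within that side or across both.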
